A study of Mus musculus with 2 samples.

Results

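Socs3 and 7 genes of the interleukin-6 (IL-6) family pathway that feeds STAT3 were followed across the cell populations of mouse back skin. The 8 genes, of 31053 measured, were Socs3, Stat3, Il6st, Il6ra, Osmr, Lifr, Jak1 and Bcl3, each found by its symbol. Socs3 was chosen by measured values, namely its difference between the induced and the control library in an earlier look at these data, and the other 7 were taken as its pathway. All 8 genes had UMIs (unique molecular identifiers, each standing for 1 captured transcript) in both libraries.

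Cytokines of the IL-6 family bind a receptor chain of their own, such as IL6RA, OSMR or LIFR, which pairs with the shared chain gp130, the product of Il6st. The kinase JAK1 on these chains then phosphorylates STAT3, a transcription factor that enters the nucleus and switches on target genes, among them its own inhibitor Socs3. SOCS3 binds gp130 and JAK1 and ends the signal, so that its mRNA is commonly read as an early and short-lived trace of cytokine input. In skin this pathway is known from wound repair, keratinocyte migration and the hair cycle.

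The study profiled back skin at postnatal day 53 by 10x single-cell RNA-seq, comparing 1 library of a control animal with 1 library of an animal whose epithelium can be induced to make the microRNA miR-205, to see what the microRNA changes before hair growth is visible. In the induced mouse a Krt14-driven rtTA switched on a pTRE2-miR-205 transgene, first made in FVB mice, on doxycycline chow given for 4 days from day 49, so induction was aimed at keratin 14 cells and their descendants. Both mice were gender matched, labelled C57BL/6 and carried the nuclear reporter allele Krt14-H2b-GFP. The labels call the control untreated, whereas the protocol for cell collection has both mice on doxycycline, so what the control was fed is not settled here.

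There were 4545 barcodes with 55465594 UMIs in the control library and 4264 barcodes with 49733560 UMIs in the induced one. Sorting set the shares of epidermal, follicle and dermal cells, so cell numbers do not measure tissue composition. The study's filter kept 3936 and 3628 cells with median depths of 12198.5 and 11752.5 UMIs, and 5 of the kept barcodes occurred in both libraries. With 1 library per group there was no replicate and no test, and every interval below is a 95% interval for counting error only. Where genes or populations beyond counting error are counted, the share of all tested genes beyond it is not given, so such counts are descriptions. The mature microRNA is not captured by this assay, so the induction itself was not checked. Levels are CPM, the UMIs of a gene scaled to the same total in every population and library.

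Clustering gave 23 clusters, of which 14 could be named from marker genes and 21 had at least 20 cells in each library. Cells with the markers of hair follicle stem cells, called HF-SC-like, formed cluster 2, which had 7 of 8 such markers raised with Krt24 as its leading gene and held 352 control and 343 induced cells. Cluster 7, with 201 control and 211 induced cells, had the highest mean of hair germ (HG) markers, 5 of 6 raised, but none of them was among its 10 leading genes, which began with Fgb and Grp and held the smooth muscle marker Tagln, so it is called cluster 7. The other named populations were inner bulge-like, upper HF-like, dermal papilla-like, fibroblast-like, cycling-like, sebaceous gland-like, Schwann-like, T cell-like and melanocyte-like cells, the suprabasal layer of the interfollicular epidermis (IFE suprabasal-like) and 2 antigen-presenting-like clusters, 16 with Cd207 and 17 with Lyz2 and Mrc1. Endothelial-like cells, with 7 control cells, and a cluster with T cell markers and 9 control cells were not compared.

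Levels were compared where a gene had at least 20 UMIs over both libraries in a population. Among those, Socs3 was the only one of the 8 genes that was at least 2-fold higher in the induced library. Its level was 2.59-fold higher in the induced library in HF-SC-like cells, 2.61-fold higher in inner bulge-like cells and 2.43-fold higher in cluster 7. In cluster 7 the difference was 1.43-fold in cells low in transcripts of the dissociation response, and smooth muscle markers stood at 57.4 CPM in the control and 340 CPM in the induced library, whose part in the value was not tested. The kinase Jak1, the shared receptor chain Il6st and Stat3 itself stayed within 2-fold in every population compared. Bcl3 was at least 2-fold lower in 3 populations (HF-SC-like cells, cluster 13 and sebaceous gland-like cells). Il6ra was so in HF-SC-like cells, Lifr in sebaceous gland-like cells and Osmr in melanocyte-like cells, in each case on few UMIs. Of all tested genes, 5.01% were at least 2-fold lower in sebaceous gland-like cells, 6.59% in melanocyte-like cells and 2.14% in cluster 13. The dermal papilla-like cells, which carried the most Socs3 of all populations, had a log2 ratio of 0.04 in the main values and of 1.01 when only cells with at least 5000 UMIs were used, thinned to that depth.

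Of 9537 genes with at least 20 UMIs in HF-SC-like cells, 3.6% were at least 2-fold higher and 2.3% at least 2-fold lower in the induced library. Of the 8 pathway genes, 1 was higher (Socs3) and 2 were lower (Il6ra and Bcl3). In cluster 7, 6.12% of 9117 genes were at least 2-fold higher and 2.24% lower, against 1 (Socs3) and 0 of the 8 pathway genes. In inner bulge-like cells 3.64% of 8140 genes were at least 2-fold higher and 1.57% lower, against 1 (Socs3) and 0 of 7 pathway genes. Since Socs3 was picked on this contrast, nothing is read from its place among these shares. The median log2 ratio of the 8 genes was -0.10 in HF-SC-like cells, where that of all tested genes was 0.09, and -0.04 in cluster 7, where that of all tested genes was 0.03.

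**Figure D1:**
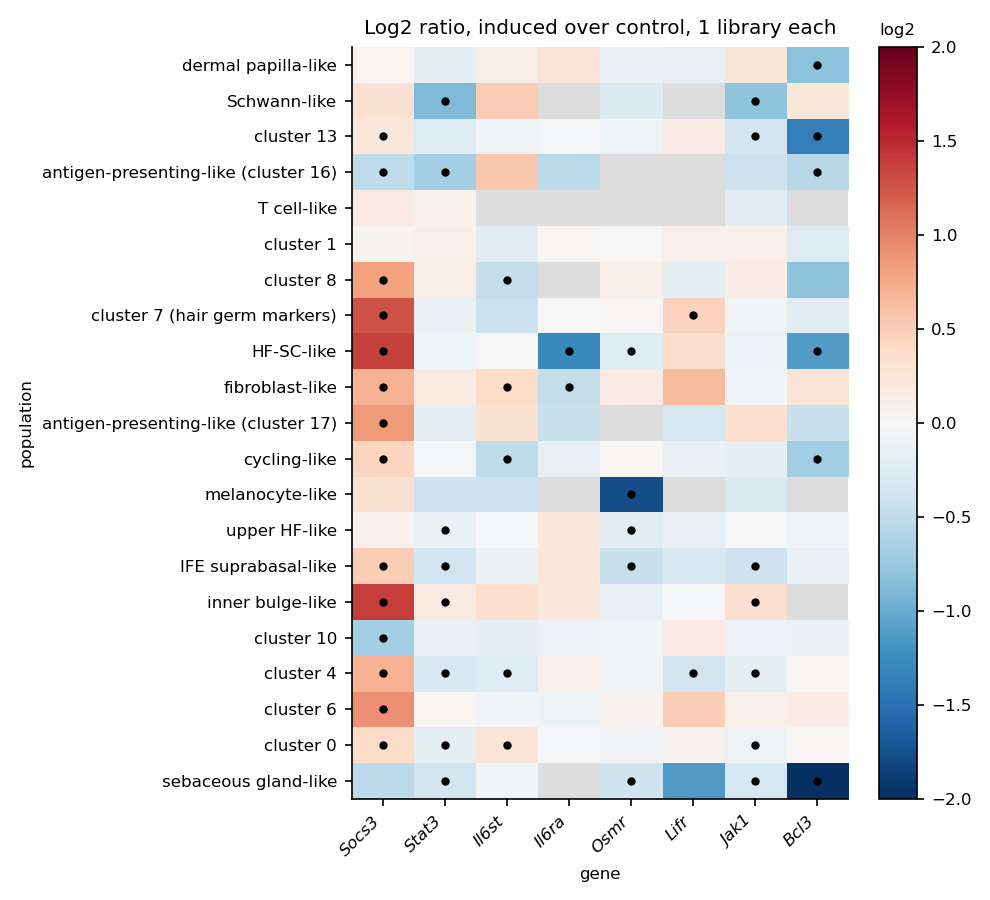
Log2 ratio of the induced over the control library for 8 genes (columns) in 21 populations (rows, ordered by Socs3 level in the control library), on a colour scale that ends at -2 and 2. Red is higher in the induced library, blue lower, grey under 20 UMIs over both libraries, and a dot marks an interval for counting error that leaves out 0. The Socs3 column holds the strongest reds, at 1.37 in HF-SC-like cells, 1.38 in inner bulge-like cells and 1.28 in cluster 7.

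The ligands are described first, by the populations that carried their transcripts. Il6, the founding cytokine of the family, came mainly from Schwann-like and fibroblast-like cells. Il6 had 622 control and 346 induced UMIs in Schwann-like cells, a level of 5024 and 1538 CPM and a log2 ratio of -1.71 (interval -1.90 to -1.52), though 5 cells held 72.8% of the control UMIs. Fibroblast markers in these Schwann-like cells summed to 16162 CPM in the control and 25685 CPM in the induced library, beside 12100 and 12269 CPM of Schwann markers, and their part in the Il6 value was not tested. In fibroblast-like cells Il6 had 574 and 588 UMIs, 422 and 341 CPM. HF-SC-like cells held 13 and 12 Il6 UMIs, so the stem cell population itself carried little of this cytokine in either library.

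Clcf1, another ligand of the family, reached its highest levels in T cell-like cells, at 245 and 218 CPM from 31 UMIs in each library. Lif, the ligand of LIFR, was lower in the induced library, with 334 control and 154 induced UMIs over all kept cells and a log2 ratio of -0.96 (-1.25 to -0.68). In cluster 7 Lif had 47 and 8 UMIs, a log2 ratio of -2.72, but 5 control cells carried 76.6% of its control UMIs. Osm had 18 and 15 UMIs over all kept cells and Cntf had none. Of the 11 ligand genes, 6 could be compared in HF-SC-like cells. Of these 0 were at least 2-fold higher and 1, Lif, was lower, with 15 and 5 UMIs, beside 3.6% of all tested genes higher and 2.3% lower. Beyond counting error, 1 ligand gene was higher there and 2 were lower, without a share of all tested genes to set beside these counts. The 11 ligand genes together held 550 control and 701 induced UMIs in HF-SC-like cells. Most of these UMIs came from ligand genes other than Il6 and Lif.

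The shared receptor chain Il6st (ENSMUSG00000021756), which most of these cytokines need, was most abundant outside the epithelium. Its level was 291 CPM in control and 418 CPM in induced Schwann-like cells, and 171 and 219 CPM in fibroblast-like cells. In control Schwann-like cells 5 cells held 50% of the 36 UMIs. The interval there, 204 to 403 CPM, overlapped that of melanocyte-like cells, 128 to 333 CPM. HF-SC-like cells were near the bottom of the order, with 94 control and 93 induced UMIs and 27.2 CPM in both libraries. The log2 ratio there was 0.00 with an interval from -0.43 to 0.43, so a difference of 2-fold lies outside what counting error allows. Among 20 populations compared, Il6st was higher beyond counting error in 2, lower in 3 and neither in 15, and its log2 ratios ran from -0.51 in cycling-like cells to 0.54 in antigen-presenting-like cluster 16.

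Il6ra (ENSMUSG00000027947), the receptor chain specific to IL-6, was highest in the dermal papilla-like cells, the mesenchymal cells at the base of the follicle. Dermal papilla-like cells carried 112 control and 255 induced UMIs, 168 CPM (138 to 202) in the control and a level between 180 and 231 CPM in the induced library. The next level in the control library, 90.1 CPM in antigen-presenting-like cluster 16, had an interval from 65.7 to 121 that did not reach that of the dermal papilla-like cells. HF-SC-like cells held 43 control and 17 induced UMIs of Il6ra, 12.4 and 4.98 CPM, a log2 ratio of -1.30 (-2.22 to -0.48). That ratio fell short of 2-fold, at -0.96, when cells were thinned to 5000 UMIs. In cluster 7 the levels were 20.4 and 20.6 CPM, with no difference beyond counting error.

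Osmr (ENSMUSG00000022146), the receptor chain for oncostatin M, was found in all populations but those of immune cells. In the 18 populations with enough UMIs the control level ran from 64 CPM in IFE suprabasal-like cells to 299 CPM in Schwann-like cells, with 157 CPM in cluster 7, whereas T cell-like cells held 1 UMI in each library. The Schwann-like level rested on few cells, since 5 of them held 78.4% of the 37 control and 91.1% of the 56 induced UMIs, and its control interval, 210 to 412 CPM, overlapped that of melanocyte-like cells, 128 to 333 CPM. HF-SC-like cells had 470 control and 393 induced UMIs, 136 and 115 CPM, a log2 ratio of -0.24 (-0.44 to -0.04). Over 18 populations Osmr was lower beyond counting error in 5 and higher in 0. The lowest ratio, -1.77 in melanocyte-like cells, rested on 19 and 11 UMIs and turned to 0.21 without the 5 cells per library that held the most Osmr.

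Lifr (ENSMUSG00000054263), the receptor chain for LIF, was highest in other populations. Its highest level was in cluster 8, a cluster led by Col4a3, Col4a4 and Pthlh with 4 of 8 HF-SC markers raised, at 112 CPM in control and 97.6 CPM in induced cells. Cluster 7 came next, with 159 control and 260 induced UMIs, 69.1 and 95.7 CPM and a log2 ratio of 0.47 (0.18 to 0.76), the only population in which Lifr was higher beyond counting error. HF-SC-like cells had 108 and 136 UMIs, 31.2 and 39.8 CPM, and the ratio of 0.35 had an interval from -0.02 to 0.73. Sebaceous gland-like cells, at -1.14, held only 13 and 8 UMIs. So the receptor chains were laid out differently, with Il6ra highest in the dermal papilla-like cells, Lifr in cluster 8 and Il6st in Schwann-like cells. The first place of Osmr in Schwann-like cells rested on a few cells. In the control library the Lifr interval of cluster 7, 58.8 to 80.7 CPM, overlapped that of inner bulge-like cells, 47.8 to 75.5 CPM. In the induced library those of cluster 8 and cluster 7 overlapped.

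**Figure D2:**
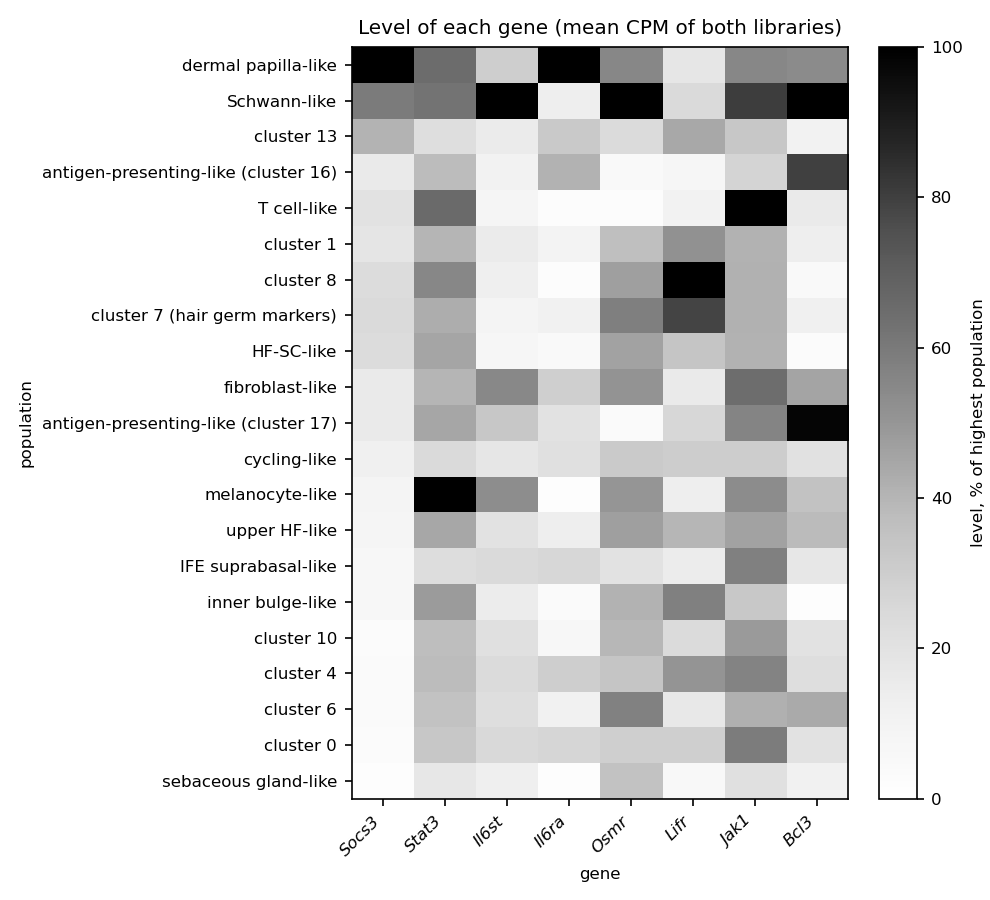
Level of each gene (columns) in 21 populations (rows), as a percent of the level in the population where that gene is highest, from the mean CPM of both libraries. Socs3 and Il6ra are darkest in dermal papilla-like cells, Il6st and Osmr in Schwann-like cells (Osmr there mostly from 5 cells in each library), and Lifr in cluster 8. Shades compare populations within a column, not genes with each other.

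Jak1 (ENSMUSG00000028530), the kinase that gp130 cytokines share with interferon receptors, was detected in every population, from 104 CPM in sebaceous gland-like to 474 CPM in T cell-like cells of the control library. HF-SC-like cells had 648 control and 592 induced UMIs, 187 and 173 CPM, a log2 ratio of -0.11 (-0.28 to 0.05). In cluster 7 the ratio was -0.09 (-0.28 to 0.10). Jak1 was lower beyond counting error in 6 of 21 populations and higher in 1, inner bulge-like cells, at 0.33. The lowest value was -0.81 in Schwann-like cells, which rested on 56 and 58 UMIs.

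Stat3 (ENSMUSG00000004040), the transcription factor at the end of the pathway, was likewise expressed throughout. The control level was highest in melanocyte-like cells, at 786 CPM from 70 UMIs, and lowest in sebaceous gland-like cells, at 136 CPM. HF-SC-like cells had 1109 control and 1027 induced UMIs, 321 and 301 CPM, and cluster 7 had 702 and 757 UMIs, 305 and 279 CPM. The log2 ratios were -0.09 (-0.22 to 0.03) and -0.13 (-0.28 to 0.02), so in neither did the level differ beyond counting error. Stat3 was lower beyond counting error in 7 of 21 populations, higher in 1, and its ratios stayed between -0.88 and 0.18. STAT3 acts once phosphorylated, which mRNA counts do not show.

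Stat3 was also the only gene of the 8 whose longest annotated 3′ UTR held a 7-base match to the seed of the induced microRNA. The study itself lists Il6st among cell adhesion genes whose mRNA was bound by miR-205 in its capture experiment. The Il6st 3′ UTR used here held 0 such matches, so this search does not cover all bound mRNAs. The mature miR-205 strand from RefSeq (GRCm38.p6, chr1:193507503-193507524, minus strand) is shown with its seed, bases 2 to 8, in capitals, followed by the Stat3 site with the seed match in capitals.
mmu-miR-205-5p: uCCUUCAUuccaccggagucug
Stat3 3′ UTR site: gaggccaggggATGAAGGgctg
The match lies at base 3202 of the 3701-base Stat3 3′ UTR (NCBIM37, chr11:100746905-100746911, minus strand). Of 19915 genes with an annotated 3′ UTR, 10.4% had at least 1 such match. A match is a description of the letters, and the Stat3 level beside it, -0.09 on the log2 scale in HF-SC-like cells, did not differ between the libraries beyond counting error. Of the 7 populations in which Stat3 was lower beyond counting error, the lowest lay outside the epithelium, at which induction was aimed. Schwann-like cells were at -0.88 and antigen-presenting-like cluster 16 at -0.67. IFE suprabasal-like cells were at -0.38, sebaceous gland-like cells at -0.37, cluster 4 at -0.30, cluster 0 at -0.20 and upper HF-like cells at -0.16.

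Socs3 (ENSMUSG00000053113), the inhibitor that closes the loop, varied widely between populations. In the control library its level was 961 CPM (888 to 1039) in dermal papilla-like cells, 517 CPM (398 to 660) in Schwann-like cells and 364 CPM (336 to 395) in cluster 13, a cluster led by Wnt3a and Ascl2. It was 127 CPM in HF-SC-like cells, 140 CPM in cluster 7 and 17.2 CPM in sebaceous gland-like cells, the lowest. The dermal papilla-like and sebaceous gland-like cells kept these first and last places in the induced library, at 988 and 11.9 CPM. The level in Schwann-like cells rested on few cells. There 5 cells held 76.6% of the 64 control and 51.7% of the 145 induced Socs3 UMIs. Of 20 neighbouring pairs in the order of levels, 16 had overlapping intervals in the control library and 14 in the induced library, so only a few steps of the order, such as that from dermal papilla-like to Schwann-like cells, exceeded counting error.

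**Figure D3:**
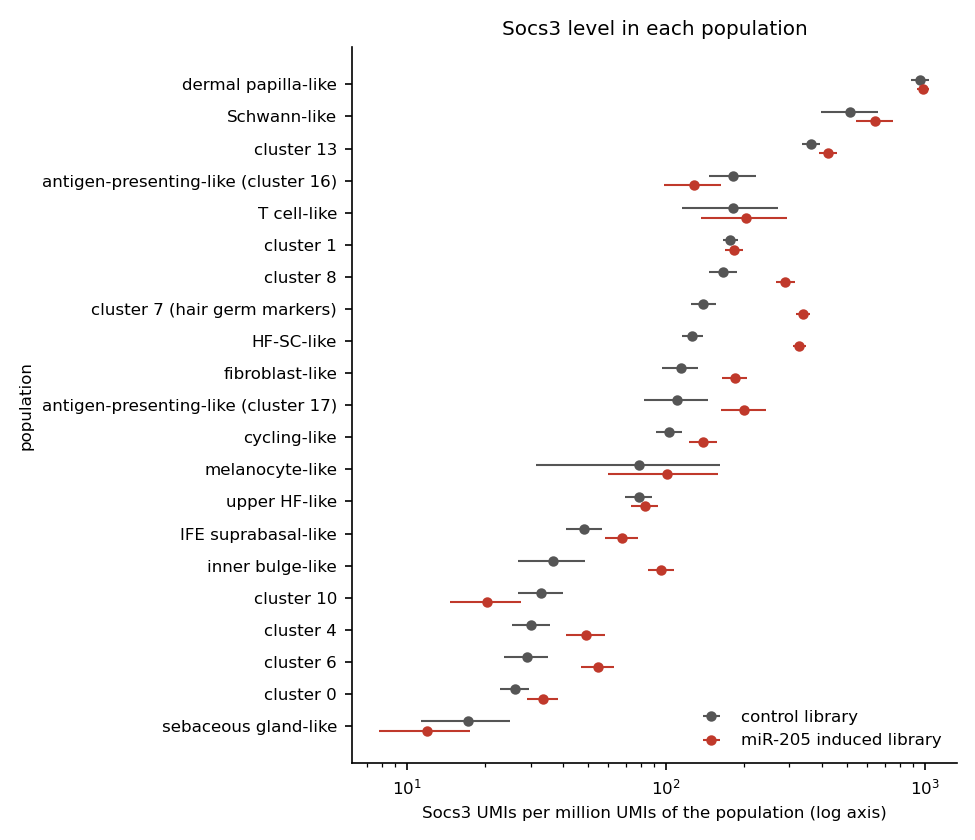
Socs3 level in 21 populations, in CPM on a log axis, for the control library (grey) and the induced library (red), with 95% intervals for counting error. Populations run from dermal papilla-like cells at the top (961 and 988 CPM) to sebaceous gland-like cells at the bottom (17.2 and 11.9 CPM). HF-SC-like cells, cluster 7 and inner bulge-like cells show the widest gaps between the libraries.

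Between the libraries, Socs3 rested on 438 control and 1121 induced UMIs in HF-SC-like cells, 127 CPM (115 to 139) and 328 CPM (309 to 348), a log2 ratio of 1.37 (1.21 to 1.54). Inner bulge-like cells had 47 and 282 UMIs, 36.5 and 95.9 CPM, a ratio of 1.38 (0.94 to 1.87). That ratio rested on 170 control and 381 induced cells, of which 29 and 110 had a Socs3 UMI. There 5 cells held 38.3% of the control UMIs. At under 5% mitochondrial UMIs only 11 control cells were left, too few to compute that alternative. Cluster 7 had 321 and 922 UMIs, 140 and 339 CPM, a ratio of 1.28 (1.10 to 1.47). In all 3 populations the induced library was the higher and the intervals of the levels did not overlap.

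Smaller differences in the same direction were seen in cluster 6, led by the barrier genes Flg and Flg2, at 0.92 (0.57 to 1.27), in the Mrc1 antigen-presenting-like cluster 17 at 0.85 (0.36 to 1.37), in cluster 8 at 0.80 (0.59 to 1.02), in cluster 4 at 0.70 (0.35 to 1.05) and in fibroblast-like cells at 0.69 (0.41 to 0.98). Over all 21 populations Socs3 was higher beyond counting error in 12, lower in 2 and neither in 7. The 2 lower populations were cluster 10, led by Ltf and Csn3, with 101 and 41 UMIs and a ratio of -0.69 (-1.26 to -0.16), and the Cd207 antigen-presenting-like cluster 16, with 91 and 64 UMIs and a ratio of -0.50 (-0.99 to -0.03). Over all kept cells together the level was 96.2 CPM in control and 164 CPM in induced cells, where fewer cells of a type and less RNA per cell cannot be told apart.

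In dermal papilla-like cells Socs3 had 642 control and 1231 induced UMIs, a log2 ratio of 0.04 (-0.10 to 0.18). These cells were shallower in the control library, with a median of 4503 against 5486.5 UMIs. When only cells with at least 5000 UMIs were used, each thinned to that depth, 51 control and 139 induced cells were left and the ratio was 1.01. The shares of these cells with a Socs3 UMI were 84.3% (71.4 to 93) and 89.9% (83.7 to 94.4). The near equality of Socs3 in this population therefore did not hold for its deeper cells, and the part of depth in the value was not tested.

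Shares of cells with a Socs3 UMI were higher in the induced library too in HF-SC-like cells and cluster 7, though a higher level per cell also raises such a share. With each cell thinned to 5000 UMIs, 32.2% (27.2 to 37.6) of control and 48% (42.5 to 53.6) of induced HF-SC-like cells had a Socs3 UMI, against 46.3% and 60.9% without thinning. In cluster 7 the thinned shares were 31.8% (25.3 to 38.9) and 45.4% (38.5 to 52.5). Inner bulge-like cells had 12.5% (7.7 to 18.8) and 20.6% (16.5 to 25.3), so the intervals overlap there and in cluster 7. The thinned share was not higher in every population. It was 31.2% and 29.2% in cluster 1, 11% and 10.8% in cluster 10 and 42.9% and 31.1% in antigen-presenting-like cluster 16. Thinning left out 23 control and 14 induced HF-SC-like cells and 9 and 4 cells of cluster 7 that were shallower. Sebaceous gland-like cells, with the lowest Socs3 level, gave thinned shares of 3.8% and 3.88%, far below those of HF-SC-like cells and cluster 7. Their unthinned median depths were 17263.5 and 19081 UMIs against 9722 and 9940 UMIs in HF-SC-like cells.

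Cells with many Socs3 UMIs were also more frequent. At least 5 UMIs were counted in 21 of 352 control and 67 of 343 induced HF-SC-like cells, and in 18 of 201 control and 50 of 211 induced cells of cluster 7. The median cell had 0 Socs3 UMIs in the control and 1 in the induced library in both populations, and the highest cell had 21 and 46 UMIs in HF-SC-like cells. The 5 cells with the most Socs3 held 18.9% of the control and 16.4% of the induced UMIs of HF-SC-like cells.

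Socs3 is also an early response gene, and the skin was digested with warm collagenase and trypsin, so transcripts known to rise during such dissociation were counted beside it. A list of 20 such genes, including Fos, Jun, Egr1, Atf3 and heat shock genes, was above 0 on the log2 scale for 17 genes in HF-SC-like cells, with a median ratio of 0.21 beside 0.09 for all tested genes. In inner bulge-like cells 18 were above 0, with a median of 0.27 beside 0.03, and in cluster 7 18, with a median of 0.68 beside 0.03. In cluster 7, 5 of them were at least 2-fold higher in the induced library, namely Fos at 1.24, Egr1 and Atf3 at 1.13 each, Btg2 at 1.08 and Zfp36 at 1.02, where 6.12% of all tested genes were that much higher. The median cell gave 2.81% of its UMIs to the list in control and 3.54% in induced HF-SC-like cells, and 1.28% and 1.56% in cluster 7.

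Within both libraries Socs3 was concentrated in the cells with the larger share of these stress transcripts. The 202 control and 146 induced HF-SC-like cells at or below the median share had 65.1 CPM of Socs3 in the control and 137 CPM in the induced library, and the 150 and 197 cells above it had 214 and 470 CPM. The log2 ratios were 1.07 (0.75 to 1.40) and 1.13 (0.95 to 1.32), so the induced library was higher beyond counting error in both sets of cells. In cluster 7 the 111 and 95 cells at or below the median share had 40.3 and 57.9 CPM, a ratio of 0.52 (0.00 to 1.05), whereas those above it had 284 and 603 CPM, a ratio of 1.08 (0.88 to 1.29). The intervals of both ratios in cluster 7 overlap and hold 2-fold, the difference between these sets of cells was not tested, and the part of the dissociation response in the Socs3 result was not tested.

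**Figure D4:**
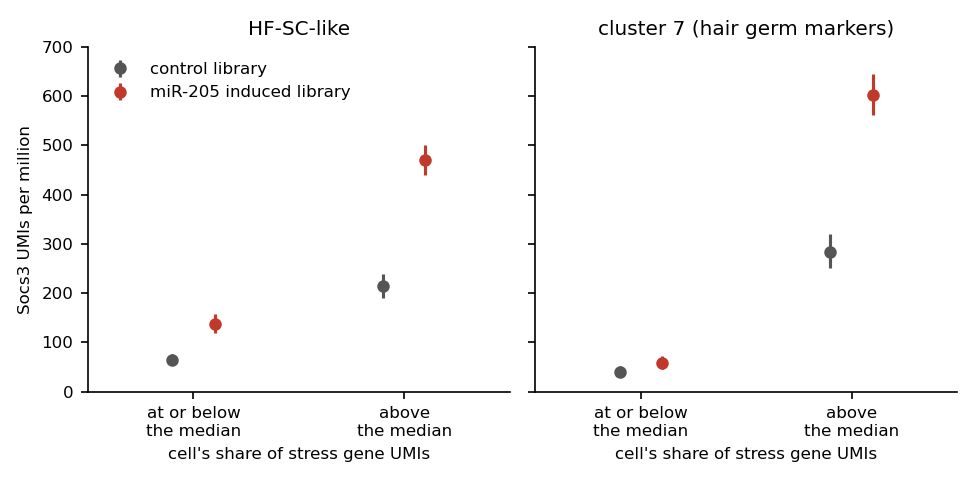
Socs3 level (CPM, linear axis from 0) in cells at or below and above the median share of UMIs from 20 dissociation stress genes, for HF-SC-like cells (left) and cluster 7 (right), with 95% intervals for counting error. In both populations and both libraries the cells above the median carry more Socs3. In cluster 7 the libraries lie at 40.3 and 57.9 CPM in the lower group and at 284 and 603 CPM in the upper.

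Over the 21 populations the Socs3 ratio and the median ratio of the stress list had a Pearson correlation of 0.62 and a Spearman correlation of 0.63. Without the 2 populations whose stress medians lay farthest from the middle, sebaceous gland-like cells and cluster 7, Pearson's value was 0.46. For the STAT3 target list Pearson's value over all 21 populations was 0.49 (Spearman 0.41). Without the 2 populations farthest from the middle of that list, melanocyte-like and sebaceous gland-like cells, it was 0.42. All points come from the same 2 libraries, so these values are descriptions.

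Markers of other cell types were checked beside the Socs3 result. Dermal papilla markers, from the population richest in Socs3, summed to 3.76 CPM in control and 2.64 CPM in induced HF-SC-like cells, with Corin, Rspo3 and Sox18 at 0 in both. In cluster 7 they summed to 53 control and 7 induced UMIs, 23 and 2.58 CPM. Smooth muscle markers in cluster 7 were higher in the induced library, with 132 and 925 UMIs over 6 genes, 57.4 and 340 CPM, led by Tagln with 93 and 393 UMIs and with Rgs5 at 0. The part of these cells in the cluster 7 values was not tested. The 8 HF-SC markers in HF-SC-like cells summed to 12420 and 16254 CPM, most of it Krt15 with 30824 and 40254 UMIs, so the population did not carry its own markers at the same level in both libraries.

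In sequence, Socs3 was the only gene of the 8 with the 9-letter motif of activated STAT dimers, TTCNNNGAA, in the window from 250 bases before to 50 bases after its RefSeq start (GRCm38.p6). The motif reads the same on both strands. It is shown with 10 bases on each side, as read on the minus strand of chr11:117969502-117969530, with the match in capitals.
Socs3 promoter: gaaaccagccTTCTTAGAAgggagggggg
The match starts 154 bases upstream of the gene's start. Of 32544 promoter windows of this length 8.33% held a match, and of 26742 genes 9.6%. The other 7 genes had none in 8 windows, which says only that these letters are not there.

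Over 13 named populations in both libraries, 26 points, the genes whose log2 level was most like that of Socs3 among 10801 were Abca5 with a Pearson correlation of 0.835, Tpm3 with 0.825, Sipa1 with 0.823, Ddhd1 with 0.821 and Ccnd3 with 0.813. Stat3 had a value of 0.57 (rank 705), Jak1 of 0.54 (rank 886), Il6ra of 0.53 (rank 962) and Bcl3 of 0.45 (rank 1482). Many genes outside the pathway were thus closer to Socs3 than these. Il6st, Lifr and Osmr were at 0.33, 0.21 and 0.08, so these receptor chains followed Socs3 less closely than Stat3 did, while the receptor chain Il6ra was near Stat3. The points share their 2 libraries and differ in depth, and these values are descriptions.

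Bcl3 (ENSMUSG00000053175), a nuclear partner of NF-kappaB that is also a STAT3 target, was strongest outside the keratinocytes, at 189 CPM in the control cells of antigen-presenting-like cluster 17, 160 CPM in cluster 16 and 153 CPM in Schwann-like cells. HF-SC-like cells had among the lowest levels, with 27 control and 12 induced UMIs, 7.81 and 3.52 CPM. Unlike Socs3, Bcl3 was lower in the induced library wherever it differed beyond counting error, which was in 6 of 18 populations. Sebaceous gland-like cells had 49 and 13 UMIs, 31.2 and 5.97 CPM and a log2 ratio of -2.34 (-3.39 to -1.48). Cluster 13 had 43 and 14 UMIs and a ratio of -1.36 (-2.38 to -0.50), and HF-SC-like cells a ratio of -1.12 (-2.27 to -0.12). The HF-SC-like value fell short of 2-fold under several other ways of processing, reaching -0.69 with thinned cells.

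In dermal papilla-like cells Bcl3 had 77 control and 81 induced UMIs, 115 and 65 CPM, a ratio of -0.83 (-1.29 to -0.36), while Socs3 there stood at 0.04, or at 1.01 with cells thinned to 5000 UMIs. In cycling-like cells Bcl3 was at -0.70 (-1.22 to -0.21) and Socs3 at 0.44 (0.19 to 0.68). In HF-SC-like cells, cluster 13 and cycling-like cells Bcl3 was thus lower and Socs3 higher beyond counting error, and the difference between the genes was not tested.

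The wider lists of the pathway gave mixed values. Among 22 STAT3 target genes, 16 could be compared in HF-SC-like cells, of which 12 were above 0 on the log2 scale and 0 reached 2-fold in either direction, beside 3.6% of all tested genes higher and 2.3% lower. Their median was 0.23 beside 0.09 for all tested genes. Cebpd, a transcription factor of the acute phase response, was at 0.58 (0.47 to 0.70) and Myc at 0.31 (0.21 to 0.41). Pim1, a kinase gene downstream of STAT signals, was at -0.51 (-0.62 to -0.41).

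In cluster 7, 18 STAT3 target genes could be compared, with a median of 0.08 beside 0.03 for all tested genes. Irf1, a transcription factor of the interferon response, was at 1.35 (1.06 to 1.66) with 124 and 375 UMIs. Lcn2, an antimicrobial iron carrier, had 1 control and 65 induced UMIs, a ratio of 5.21 with an interval from 3.25 to 11.1. Ccnd1, a cyclin of the G1 phase, was at -1.04 (-1.32 to -0.77), and Timp1, a protease inhibitor, had 29 and 3 UMIs and a ratio of -3.32 (-5.87 to -1.82), with all control UMIs in at most 5 cells. In each direction 2 genes of the list were thus past 2-fold, beside 6.12% of all tested genes higher and 2.24% lower.

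**Figure D5:**
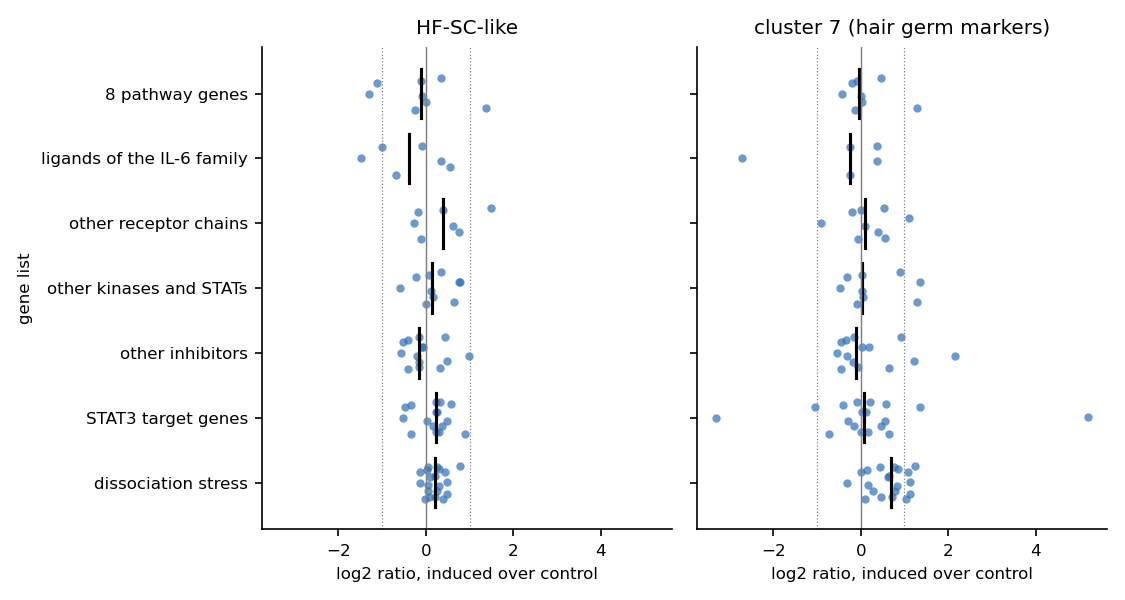
Log2 ratio of the induced over the control library for each gene with at least 20 UMIs in 7 gene lists (rows), in HF-SC-like cells (left) and cluster 7 (right). Black bars are list medians and dotted lines mark 2-fold. Most stress genes lie to the right of 0 (17 and 18 of 20), with medians of 0.21 and 0.68, while the 8 pathway genes in the top row spread on both sides, with medians of -0.10 and -0.04.

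Other receptor chains of cytokine families had a median of 0.39 over 7 genes in HF-SC-like cells and of 0.10 over 9 genes in cluster 7. Il11ra1, the receptor chain for IL-11, had 508 and 771 UMIs in HF-SC-like cells, a ratio of 0.62 (0.46 to 0.78), and it was at 0.54 (0.29 to 0.78) in cluster 7. Il20rb, a receptor chain for IL-20 cytokines, was the only one of the list past 2-fold in HF-SC-like cells, with 19 control and 54 induced UMIs, 5.5 and 15.8 CPM, where 3.6% of all tested genes were that much higher.

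The other kinases and STATs had medians of 0.13 over 10 genes in HF-SC-like cells and 0.04 over 9 in cluster 7. The other inhibitors had medians of -0.16 and -0.11 over 14 genes each. Socs1, the relative of Socs3 that restrains interferon signals, was at -0.21 (-0.62 to 0.19) in HF-SC-like cells and 0.64 (0.22 to 1.08) in cluster 7. Cish, another gene of the SOCS family, had 435 and 384 UMIs in HF-SC-like cells, a ratio of -0.16 (-0.36 to 0.04). The phosphatase genes Ptpn1 and Ptpn2, which dephosphorylate JAKs and STATs, were at -0.56 (-0.85 to -0.28) and -0.52 (-0.73 to -0.31) in HF-SC-like cells. Socs2, another SOCS gene, had 16 and 32 UMIs there, a ratio of 1.00 (0.11 to 1.98).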

How the data were processed

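Single-cell RNA-seq data of 1 control and 1 miR-205 induced mouse were used. The authors deposited raw UMI counts per gene and barcode, made with Cell Ranger (the matrix headers give software version 3.0.1, and the submitters' processing notes name mm10). Those counts are not normalized. Cells with more than 200 and fewer than 5000 genes and under 10% mitochondrial UMIs were kept. Integration of both libraries used Seurat 5.3.0 under R 4.3.3 (2000 variable genes without the 104 listed genes, 30 dimensions, Louvain resolution 0.8). A cluster was named when at least 3 markers were raised at least 2-fold, at least 1 was among its 10 leading genes and no other class had more there, a rule set after the clusters were seen.

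UMIs were summed per population and library. Log2 ratios (0.5 UMI added) need at least 20 UMIs over both libraries, and intervals are exact Poisson, conditional binomial or Clopper-Pearson. The method was tested only on simulated sums with counting error alone, so that check does not cover spread between mice or between cells. With 1 library per group no test between groups was made. Doublets were kept in the main values. Scrublet in scanpy 1.11.5 marked 4 control and 5 induced barcodes by its own threshold, which was not used, and an alternative left out the 165 and 145 highest scores, set from the number of barcodes. The genes and lists were chosen with earlier results of these data known. Named genes were the 8 pathway genes, up to 10 list genes past 2-fold with the most UMIs and the 5 genes most like Socs3, and the ligands, Timp1, Cebpd, Myc, Pim1, Il11ra1, Socs1, Socs2, Cish, Ptpn1 and Ptpn2 were named after their values were seen. Promoter windows and the microRNA came from RefSeq (GRCm38.p6; all 8 genes matched), and 3′ UTRs from an annotation on NCBIM37. No protein sequences were used. Some genes of the lists are not reported here by name.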

Additional observations from a re-analysis of the deposited data

Results flagged for a closer look

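Socs3 differed in direction between populations. Its log2 ratio of the induced over the control library was 1.37 in HF-SC-like cells, whereas it was -0.69 in cluster 10 and -0.50 in the Cd207 antigen-presenting-like cluster 16, both with intervals for counting error that left out 0. With 1 library per group the difference between these populations was not tested. In cluster 10, 5 control cells held 56.4% of the 101 control UMIs, and the thinned shares of cells with a Socs3 UMI were near equal, 11% and 10.8%. In cluster 16, 5 cells held 46.2% of the 91 control and 57.8% of the 64 induced UMIs. Both lower values thus rested to a large part on few cells.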

How the results depend on the processing

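No paired analysis was possible because each group had 1 library. For Socs3, 107 of 126 values under other processing stayed within the counting interval of the main value, and for the other 7 genes 728 of 774. The Socs3 ratio over all kept cells was 0.88 at under 5% mitochondrial UMIs, 0.67 with a median-of-ratios size factor, 0.65 as the mean over cells and 0.93 with thinned cells, against 0.77. In HF-SC-like cells it ranged from 1.06 to 1.52, with 1.06 for classes set by marker UMIs alone and, chosen after seeing the data, 1.07 in cells at or below the median stress share. The latter gave 0.52 in cluster 7, where 0 pathway genes were then at least 2-fold higher and the cause was not tested. The count of pathway genes at least 2-fold lower in HF-SC-like cells, 2, became 1 at under 5% mitochondrial UMIs, without the highest Scrublet scores, as the mean over cells, at Louvain resolution 1.2 and in cells low in stress transcripts, and 0 with thinned cells or at least 100 UMIs, where fewer pathway genes are compared. Osmr in melanocyte-like cells turned to 0.21 without its 5 highest cells.

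At under 5% mitochondrial UMIs the STAT3 target median was 0.13 (HF-SC-like) and 0.41 (cluster 7). The stress median in HF-SC-like cells was 0.35 at that limit, 0.11 with classes from markers and 0.36 at resolution 1.2, and 0.83 in cluster 7 at that limit. Shares of HF-SC-like cells with a Socs3 UMI were 23.3% and 39.9% when thinned to 3000 UMIs and 46.3% and 60.9% without thinning, and 46.8% and 62.1% in cluster 7 without thinning. Median-of-ratios scaling took out a median over all genes of 0.10 over all kept cells and 0.09 in HF-SC-like cells, with no change of direction for Socs3. The Socs3 ratio in sebaceous gland-like cells ran from -0.64 to 0.77, so it has no stable direction, and in dermal papilla-like cells from -0.23 to 1.01. Genes with few UMIs (Bcl3, Il6ra and Lif in HF-SC-like cells) are limited by depth, and no value measures the spread between mice.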
